A study of Glycine max with 2 samples.

Results

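Phenylalanine ammonia-lyase (PAL) was examined through 6 soybean loci, Glyma10g06600, Glyma13g20800, Glyma19g36620, Glyma03g33880, Glyma10g35380 and Glyma02g47940. They were chosen by their identifiers and not by a rule on their values, though earlier results of these data were known. Each of the 6 loci had 1 gene model in the deposited tables, which hold 78773 models of 69145 loci. RNA-Seq was performed on young shoot tips of greenhouse plants about 4 weeks old from a pair of isolines. Clark standard (CS) is the wild type with trichome hairs. Clark glabrous (CG) is a hairless mutant that carries the dominant P1 allele, brought into the Clark background by repeated backcrossing. Each line had 1 RNA-Seq library from pooled shoot tips of multiple plants. No difference between the lines thus has a replicate check within these data, and no p-values are given. The study also profiled both lines by Digital Gene Expression (DGE) on another set of plants. Its DGE values were not used here to check the PAL loci. The lines are compared for the trichome mutation, and any other segment that came with P1 through the backcrosses cannot be told apart from it.

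PAL is the entry enzyme of the phenylpropanoid pathway. It removes ammonia from phenylalanine and leaves cinnamic acid, from which plants make lignin, flavonoids, isoflavonoids and other phenolic compounds. Plants usually carry several PAL genes, and in legumes the pathway also feeds the isoflavonoids and other compounds of defence. The number after Glyma in an identifier is the chromosome, so the 6 loci lie on chromosomes 2, 3, 10, 13 and 19, with a pair of them on chromosome 10. The RefSeq gene table of assembly Glycine_max_v4.0 names 8 PAL genes, 2 of them on chromosome 3, 2 on chromosome 10 and 1 each on chromosomes 2, 13, 19 and 20. It carries 0 Glyma identifiers, so its symbols were not assigned to the 6 loci, and the RefSeq genes beyond the 6 were not analysed here.

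The values are in RPKM, the number of reads scaled to the length of the model and to a total for the library, so levels can be set beside each other between genes. They were whole multiples of what 1 alignment was worth, which gave a total of 152791817 alignments behind the CS library and 147273809 behind the CG library. These totals count alignments, and exceed the mapped reads that the study states, so a mapped read had more than 1 alignment on average. CS had the larger total of alignments but the smaller stated number of mapped reads, so alignments per read were higher in CS. The 6 models had between 394 and 22992 alignments in CS and between 257 and 22258 in CG. The intervals given with the values are exact 95% intervals from these alignments. They cover counting error only, and not the difference between plants or between library preparations. A read was allowed to align to several models, so reads from sequence that PAL genes share may be counted on more than 1 of them, and how many do was not tested. In shoot tips as a whole, fewer cells that express a gene and less of its RNA per cell cannot be told apart.

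All 6 loci had alignments in both libraries, over a wide range of levels, and 5 of them had a mean of 1 RPKM or more. Glyma10g06600 had 57.9 RPKM in CS (57.2 to 58.7) and 58.2 RPKM in CG (57.4 to 58.9). Glyma13g20800 had 45.2 RPKM in CS (44.5 to 45.9) and 53.3 RPKM in CG (52.6 to 54.1). These were the highest of the 6 loci in both lines, at ranks 1660 and 2157 of the 78773 models in CS and at ranks 1913 and 2093 in CG.

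A second pair of loci was at a much lower level. Glyma19g36620 had 7.61 RPKM in CS (7.33 to 7.89) and 10.4 RPKM in CG (10.1 to 10.8). Glyma03g33880 had 6.13 RPKM in CS (5.88 to 6.39) and 8.33 RPKM in CG (8.03 to 8.63). Both were higher in CG in the deposited values, and their intervals in the 2 libraries did not overlap.

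The remaining loci were the lowest of the 6 and the only ones among them with a higher deposited value in CS. Glyma10g35380 had 4.93 RPKM in CS (4.62 to 5.25) and 4.18 RPKM in CG (3.89 to 4.48). Glyma02g47940 had 1.09 RPKM in CS (0.983 to 1.20) and 0.736 RPKM in CG (0.649 to 0.832). Its mean of 0.912 RPKM was under the limit of 1 RPKM used for counts over all models. The alignments of Glyma10g35380 fitted a model of 1282 bases or a multiple of it, so its 965 alignments in CS and 789 in CG are the smallest numbers possible. A multiple of them would make its intervals narrower. For the other 5 loci the fitted lengths were 2371 to 2599 bases.

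**Figure D1:**
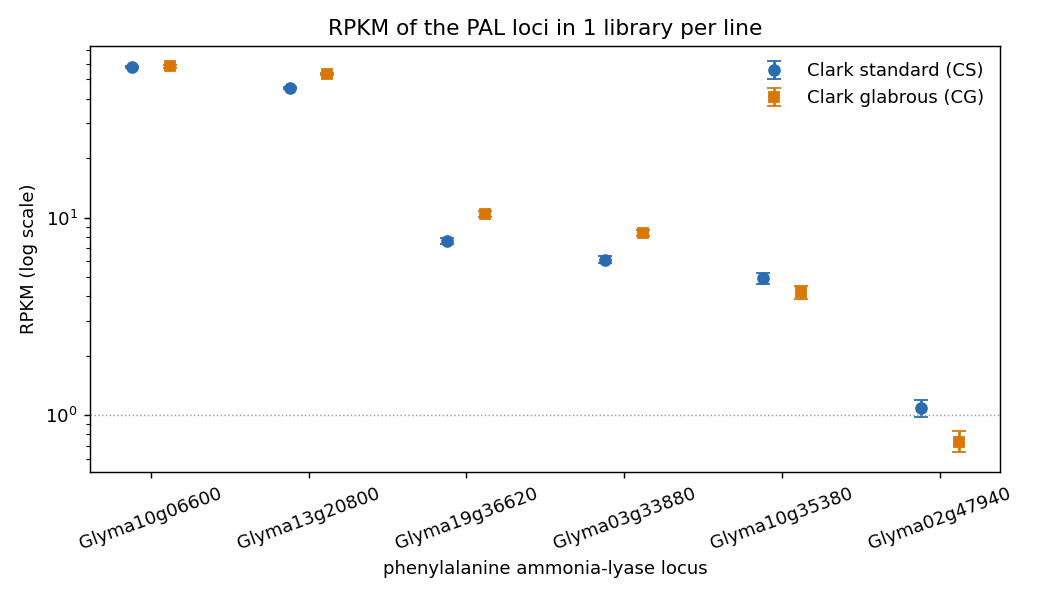
RPKM on a log scale of the 6 PAL loci in the CS library (circles) and the CG library (squares), with exact 95% counting intervals as bars and a dotted line at 1 RPKM. Glyma10g06600 and Glyma13g20800 lie between 45.2 and 58.2 RPKM, and the other loci lie between 0.736 and 10.4 RPKM.

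The order of the 6 levels was the same in both libraries, from Glyma10g06600 through Glyma13g20800, Glyma19g36620, Glyma03g33880 and Glyma10g35380 to Glyma02g47940. Within each library, all 5 pairs of neighbours in this order differed beyond counting error, if no read counts on both loci of a pair. The levels summed to 122.8 RPKM in CS and 135.2 RPKM in CG over the 6 loci, which is 1.10-fold more in CG. Glyma10g06600 made up 47.1% of the sum in CS and 43.0% in CG, and Glyma13g20800 made up 36.8% in CS and 39.5% in CG. Together these loci carried 83.9% of the sum over the 6 loci in CS and 82.5% in CG. The share of Glyma19g36620 was 6.19% in CS and 7.72% in CG, and that of Glyma03g33880 was 4.99% in CS and 6.16% in CG. Glyma10g35380 accounted for 4.01% in CS and 3.09% in CG, and Glyma02g47940 for 0.885% in CS and 0.545% in CG. Among the 6 loci, the same 2 thus carried most of the summed level in both lines.

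The differences between the lines were less than 2-fold for every locus. They are given as log2 CS/CG ratios with a pseudocount of 0.1 RPKM on both values, which understates the difference of low models, and a value below 0 means higher in CG. The ratio was -0.01 for Glyma10g06600, -0.24 for Glyma13g20800, -0.45 for Glyma19g36620 and -0.43 for Glyma03g33880. It was 0.23 for Glyma10g35380 and 0.51 for Glyma02g47940. Without the pseudocount, the counting interval of the log2 ratio included 0 for Glyma10g06600 (-0.03 to 0.02) and left out 0 for the other 5 loci. It ran from -0.27 to -0.21 for Glyma13g20800, from -0.53 to -0.38 for Glyma19g36620 and from -0.52 to -0.36 for Glyma03g33880. For Glyma10g35380 it ran from 0.10 to 0.38 and for Glyma02g47940 from 0.33 to 0.80. The size of a difference between plants of 1 line is unknown here, so none of these ratios can be set against it.

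Of the 5 PAL models with a mean of 1 RPKM or more, 0 passed a 2-fold difference toward CS and 0 passed it toward CG. Among all 43753 models past the same limit, 5.57% passed 2-fold toward CS and 13.9% toward CG. With 5 models, a count of 0 is near what these shares give. After median-centring, a scaling that brings the median ratio of all these models to 0, 9.34% passed toward CS and 8.37% toward CG, and 0 of the 5 PAL models passed in either direction. These 5 PAL models had a median log2 ratio of -0.24, beside -0.34 over all 43753 models, with -0.69 and 0.05 at percentiles 25 and 75. A lower ratio than that of Glyma19g36620, the lowest of the 6 loci, was found for 40.5% of the 43753 models. For Glyma10g06600 that share was 72.4%, for Glyma10g35380 it was 81.7%, and for Glyma02g47940, which is not itself among the 43753, it was 88.1%.

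The direction of the smaller differences depended on the scaling. As deposited, 4 of the 6 loci were higher in CG and 2 in CS, beside 72.7% of the 43753 models that were higher in CG, so this count is near the background. The 4 include Glyma10g06600, which was about equal in both libraries (-0.01). With median-centring, which multiplies every CG value by 0.788, 2 were higher in CG and 4 in CS, and ratios moved by 0.34 on the log2 scale before the pseudocount. Glyma13g20800 then had a log2 ratio of 0.11, so it turned from higher in CG to higher in CS. Glyma10g06600 moved from about equal to higher in CS, at 0.34. Glyma19g36620 and Glyma03g33880 stayed higher in CG, at -0.11 and -0.10. Glyma10g35380 and Glyma02g47940 had ratios of 0.57 and 0.81. Without the pseudocount the median-centred ratio of Glyma02g47940 was 0.91, with a counting interval of 0.68 to 1.14 that crosses 2-fold. With a scaling to the mapped reads that the study states, chosen after seeing the data, the log2 ratio was 0.15 for Glyma10g06600 and -0.08 for Glyma13g20800. After median-centring the summed level of the 6 loci turned as well, from 1.10-fold more in CG to 122.8 RPKM in CS against 106.4 in CG.

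**Figure D2:**
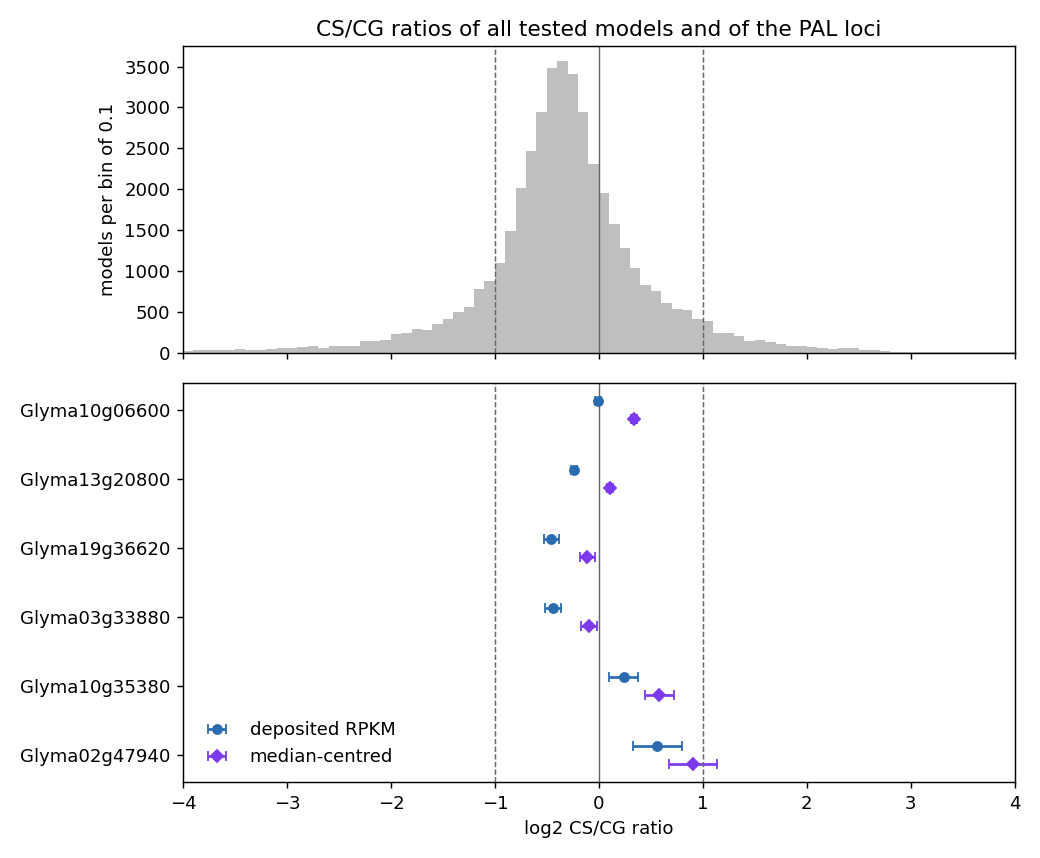
Upper panel, number of models in bins of the log2 CS/CG ratio (pseudocount 0.1 RPKM, deposited values) among the 43753 models with a mean of 1 RPKM or more; models beyond 4 in either direction are not drawn. Lower panel, log2 CS/CG ratios of the 6 PAL loci without a pseudocount, as deposited (circles) and median-centred (diamonds), with exact 95% counting intervals; dashed lines mark 2-fold. Every PAL point lies inside the dashed lines, and median-centring moves all of them to the right by 0.34. The median-centred interval of Glyma02g47940 crosses the 2-fold line toward CS.

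Ratios between loci within a library do not depend on how the libraries are scaled to each other. Their intervals take every alignment as a separate read. They do not cover reads counted on both loci of a pair, and how many there are was not tested. The level of Glyma10g06600 was 1.28-fold that of Glyma13g20800 in CS (1.26 to 1.31) and 1.09-fold in CG (1.07 to 1.11). The most abundant pair was thus closer to equal in CG, and the intervals did not overlap. The level of Glyma19g36620 was 1.24-fold that of Glyma03g33880 in CS (1.17 to 1.31) and 1.25-fold in CG (1.19 to 1.32). For these loci on chromosomes 19 and 3 the intervals of both libraries overlapped almost wholly.

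The balance between the groups of loci differed between the libraries. Glyma10g06600 and Glyma13g20800 together had 7.50-fold the level of Glyma19g36620 and Glyma03g33880 together in CS and 5.94-fold in CG. Glyma03g33880 had 1.24-fold the level of Glyma10g35380 in CS (1.15 to 1.34) and 1.99-fold in CG (1.84 to 2.16). Glyma19g36620 had 6.99-fold the level of Glyma02g47940 in CS (6.29 to 7.79) and 14.2-fold in CG (12.5 to 16.1). This was the widest shift among the 15 pairs of loci, -1.02 on the log2 scale. Glyma10g35380 had 4.53-fold the level of Glyma02g47940 in CS (4.02 to 5.11) and 5.68-fold in CG (4.93 to 6.56), and these intervals overlapped. In each library the loci on chromosomes 3 and 19 were therefore between the abundant pair and the lowest pair, and they stood further above the lowest pair in CG than in CS.

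**Figure D3:**
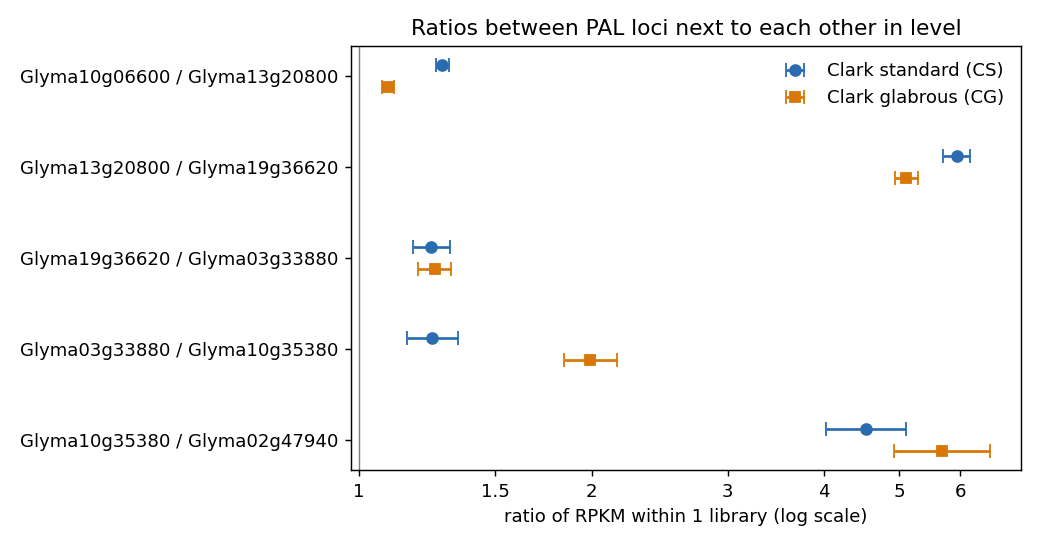
Ratio of RPKM between PAL loci that are next to each other in level, on a log scale, in the CS library (circles) and the CG library (squares), with exact 95% counting intervals. The intervals of both libraries overlap for Glyma19g36620 over Glyma03g33880 and for Glyma10g35380 over Glyma02g47940, and lie apart for the other 3 ratios.

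Other steps of the pathway could be named only where the study's own tables pair a Glyma identifier with an enzyme. These gave 3 loci with 4 models. The study listed them because their tags differed between the same lines in the DGE libraries, which came from other plants. It also lists Glyma11g07850 beside RPKM values of the same direction. Because the 3 loci were picked for a difference, their direction is no evidence about the rest of the pathway. Glyma04g40580, annotated as a caffeic acid O-methyltransferase, an enzyme that methylates lignin precursors, had a log2 ratio of 1.53, from 20.3 RPKM in CS and 6.96 in CG. Glyma11g07850, annotated as the cytochrome P450 CYP84A16, had a log2 ratio of 4.07, from 7.29 RPKM in CS and 0.340 in CG, where it had 98 alignments. Members of the CYP84A group hydroxylate precursors of syringyl lignin in Arabidopsis. Glyma04g01380, annotated as an isoflavone reductase homolog, had 49.7 and 46.8 RPKM for its 2 models in CS and 15.0 and 14.2 in CG, with log2 ratios of 1.72 and 1.71. All 4 models, 2 of them from the same locus, passed 2-fold toward CS, beside 5.57% of the 43753 models. They also passed after median-centring, beside 9.34%. The ratios of the PAL loci, from -0.45 to 0.51, were smaller in size than those of these models. These models were listed for a difference between the lines and the PAL loci were not. The contrast in size was thus favoured by that choice, and nothing is concluded from it about other steps of the pathway. By the distance between log2 levels over the 2 libraries, Glyma04g01380 was nearest to Glyma10g06600, at 1.96, followed by Glyma04g40580 at 3.40 and Glyma11g07850 at 7.65.

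The shoot tip label was not checked on independent markers. Glyma16g28030, a chlorophyll a-b binding protein of green tissue, had 1093 RPKM in CS, at rank 38 of all models, and 280.9 RPKM in CG, at rank 194. It was thus abundant in both libraries. The study lists it for a DGE tag higher in CS, beside RPKM values of the same direction, so its direction is no independent evidence. The lower RPKM in CG was itself measured in these RNA-Seq libraries, which came from a second set of plants. Its part in the PAL ratios was not tested. Markers of the meristem and of other organs were not used here, because the gene table could not be matched to the identifiers.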

How the data were processed

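Total RNA of shoot tips was sequenced on an Illumina GAII. The authors mapped the reads with Bowtie (version not given in the sources used here) to the Glyma cDNA models of Williams 82, allowing mismatches and several alignments per read, and deposited 1 RPKM value per model and library. Use of strand is not given in the sources used here.

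The most frequent ratio of the 2 deposited RPKM values of a model, 1.04 CG/CS, gave the relative worth of 1 alignment. The totals that made model lengths whole numbers, and the smallest whole alignments behind each model, followed from it. Whole alignments were found for all 900 models drawn for a check, within 2 times the rounding of the values. Exact Poisson and Clopper-Pearson intervals (95%) were computed from them. No count test was run, since reads can count several times. The recovery of totals and alignments, and the 2-fold count, were tested on simulated libraries with known values. These held no reads with several alignments, and the intervals and scalings were not tested this way.

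Log2 ratios used a pseudocount of 0.1 RPKM, counts used models with a mean of 1 RPKM or more, and 2-fold is a log2 ratio of 1. Named were all 6 loci and the pathway loci that the study annotates. The members and lists were chosen with earlier results of these data known. Pathway classes and tissue markers by product name were not made, because the RefSeq table matched 0 of the 6 loci. The authors' DGE values and fold changes were not used. Values were computed in Python 3.11.15 with SciPy 1.17.1, NumPy 2.4.6 and pandas 2.3.3, and drawn with matplotlib 3.10.9.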

Additional observations from a re-analysis of the deposited data

How the results depend on the processing

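No paired analysis was possible because there is a single library for each line, which also means that none could be left out. Median-centring gave log2 CS/CG ratios of -0.10 for Glyma03g33880, -0.11 for Glyma19g36620, 0.34 for Glyma10g06600, 0.11 for Glyma13g20800, 0.81 for Glyma02g47940 and 0.57 for Glyma10g35380. Scaling to the same upper quartile gave -0.11 for Glyma03g33880, -0.13 for Glyma19g36620, 0.32 for Glyma10g06600, 0.0855 for Glyma13g20800, 0.80 for Glyma02g47940 and 0.55 for Glyma10g35380. Scaling to the mapped reads that the study states, chosen after seeing the data, gave -0.28 for Glyma03g33880, -0.30 for Glyma19g36620, 0.15 for Glyma10g06600, -0.0818 for Glyma13g20800, 0.69 for Glyma02g47940 and 0.39 for Glyma10g35380. A pseudocount of 1 RPKM lowered the ratio of Glyma02g47940 from 0.51 to 0.27 and left the other 5 inside their counting intervals. The number of PAL models past 2-fold was 0 in both directions under every alternative run, with 6 models counted when no filter was used.

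The summed level of the 6 loci was 137.5 RPKM in CS and 120.8 in CG with the upper quartile, and 106.4 in CG after median-centring. With the scaling to mapped reads it was 287.0 in CS and 283.1 in CG, so the line with the higher sum depended on the scaling. Without Glyma10g06600 it was 64.9 RPKM in CS and 77.0 in CG, and the share of Glyma13g20800 rose to 69.6% in CS and 69.3% in CG.

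Among the 43753 models of the background, 2438 passed 2-fold toward CS as deposited, 4087 with median-centring and 4000 with upper quartile scaling. Toward CG, 6073 passed as deposited, 3661 with median-centring and 3780 with upper quartile scaling. With no filter, 4060 of all 78773 models passed toward CS and 8829 toward CG. At a mean of 10 RPKM or more, a smaller set of models, 990 passed toward CS and 1677 toward CG. The filters change the number of models counted, so counts under different filters cannot be set against each other. The lowest of the 6 loci had 257 alignments in CG.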
